A study of Mus musculus with 9 samples.

Results

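The small RNAs that came down with an antibody against Sfpq were compared directly with those that came down with an antibody against Ago2, without the input. The comparison rests on 6 of the 9 libraries, 3 Ago2 RNA-IP and 3 Sfpq RNA-IP libraries of a mouse cell line, which the authors deposited as 1 averaged signal per small RNA and group. Of 2049 small RNAs in the deposited tables, 1715 were listed in both and could be joined by name, and 653 of these had a mean signal of 20 or more over both RNA-IPs, the level set for naming an RNA. In an RNA-IP, a protein is pulled out of a cell lysate with antibody-coated beads and the RNA that comes with it is purified and sequenced.

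The labels give RAW 264.7, a macrophage-like mouse line, as the cells of every library, with no treatment or genetic change in any group. The source name in the labels, however, is a stem cell, and P19, an embryonal carcinoma line, stands in the design text of the series. The study's own account places the sequenced Ago2 and Sfpq RNA-IPs in RAW 264.7 cells. The Ago2 RNA-IP used the 2D4 clone, and the label of each Sfpq RNA-IP library names a pair of antibodies, Ab38148 and B92. Whether these were mixed in 1 pull-down is not given in the sources used here. The 9 libraries hold no pull-down with a control antibody. RNAs that come down with any antibody, RNAs carried over from the lysate and RNAs bound to the protein therefore cannot be told apart.

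Markers of cell types were read in the miRNA values. All 9 macrophage and myeloid markers were listed, with summed signals of 606620 for Ago2 and 493588 for Sfpq. Of 12 markers of pluripotent stem cells, only miR-302d-3p was listed, at 0.931 and 2.38. One of 3 muscle markers was listed, at 1.34 and 0.767, 4 of 5 neuronal markers summed to 2247 and 2599, 6 of 7 epithelial markers to 939 and 702, and 1 of 2 erythroid markers, miR-486-5p, was at 79.2 and 45.0. Most of the macrophage sum came from miR-21a-5p and both miR-146 guides, which other cells also express, and the more lineage-restricted miR-223-3p was at 220 and 130 and miR-511-3p at 3.41 and 5.53. Markers of pluripotent cells were nearly absent.

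A miRNA is cut from a hairpin precursor whose arms are named 5p and 3p. One arm, the guide, is kept by an Argonaute protein such as Ago2 and pairs with target mRNAs mainly through its seed, bases 2 to 8, while the passenger arm is mostly lost. Sfpq is a nuclear RNA-binding protein of paraspeckles that works together with NonO and Pspc1, and it is not itself an Argonaute. The direct ratio shows how far the miRNAs of both RNA-IPs had the same relative levels.

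The miRNAs on which the results turn are shown by their mature sequence, 5′ to 3′, with the seed in capitals, so that members of a family can be compared base by base. Sequences and positions are those of RefSeq on GRCm38.p6, and 255 of the 298 mature miRNAs at a mean of 20 or more were matched there. Passenger arms of let-7 with the seed UAUACAA are the seed group that stood furthest towards Sfpq. Of them, let-7f-1-3p and let-7b-3p reached the mean of 20 only through their Sfpq values. The group is shown with let-7 arms of other seeds and with the let-7a guide.
let-7f-1-3p: cUAUACAAucuauugccuuccc
let-7b-3p: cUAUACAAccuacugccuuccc
let-7a-1-3p: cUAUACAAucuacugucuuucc
let-7c-2-3p: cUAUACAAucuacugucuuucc
let-7f-2-3p: cUAUACAGucuacugucuuuc
let-7c-1-3p: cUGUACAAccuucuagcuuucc
let-7e-3p: cUAUACGGccuccuagcuuucc
let-7d-3p: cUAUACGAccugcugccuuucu
let-7a-5p: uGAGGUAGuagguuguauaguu
The mature sequences of let-7a-1-3p and let-7c-2-3p are identical, so their reads cannot be told apart and the 4 names with the seed UAUACAA stand for fewer independent measurements.

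The miR-212/132 hairpins lie next to each other on chromosome 11, and 3 of their arms were measured at a mean of 20 or more, all past 2-fold towards Sfpq.
miR-212-5p: aCCUUGGCucuagacugcuuacu
miR-212-3p: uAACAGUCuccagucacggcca
miR-132-3p: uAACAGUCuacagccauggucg
On the side of Ago2, the following stood out, most of them with relatives in sequence. miR-92a-3p is shown because it shares its seed with miR-92b-3p and had another ratio.
miR-10a-5p: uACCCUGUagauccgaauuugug
miR-10b-5p: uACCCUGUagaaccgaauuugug
miR-99a-5p: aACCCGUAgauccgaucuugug
miR-100-5p: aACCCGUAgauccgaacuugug
miR-500-3p: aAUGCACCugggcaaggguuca
miR-501-3p: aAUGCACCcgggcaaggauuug
miR-92b-3p: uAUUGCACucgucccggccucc
miR-92a-3p: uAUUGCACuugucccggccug
miR-146a-5p: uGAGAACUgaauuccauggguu
miR-146b-5p, not shown, has the seed of miR-146a-5p and a near-identical sequence, but was at -0.31 against -1.20 for miR-146a-5p. miR-10a-5p with miR-10b-5p and miR-99a-5p with miR-100-5p are also near-identical. How the authors' mapping split reads between such sequences is uncertain.

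The signals of all small RNAs in both tables summed to 9809388 with Ago2 and 9957738 with Sfpq. A signal of 20 stands for 61.2 to 97.4 reads with Ago2 and 58.9 to 78.2 with Sfpq, read from the smallest steps between low values. The ratios below are log2 of Sfpq over Ago2 after setting the median of the mature miRNAs to 0, so that a value of 1 is a 2-fold higher level with Sfpq and -1 a 2-fold higher level with Ago2, relative to the typical miRNA. The uncentred median was -0.15. As each group has 1 deposited value, no spread between libraries is known and no test was run. Counting intervals at 95% are given for single ratios where the size matters, and they cover the sampling of reads only, not differences between libraries or pull-downs. Another choice of scale shifts every ratio together. Against the scale used here, setting the median of all small RNAs to 0 (the all-RNA scale) moves ratios by -0.44, leaving them uncentred by -0.15, the summed signal by -0.17, and the common input of the tables by 0.04.

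Mature miRNAs made up 97.9% of the Ago2 signal and 96.5% of the Sfpq signal. All other classes together took 2.10% with Ago2 and 3.47% with Sfpq, 1.65 times as much. snoRNA entries took 1.36% and 1.57%. tRNA entries took 0.282% and 0.640%, piRNA entries 0.449% and 1.23%, and rRNA entries 0.0141% and 0.0358%. Nearly all signal of both pull-downs was thus miRNA, and the shares of the tRNA, rRNA and piRNA entries were more than 2 times as high with Sfpq.

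The 10 miRNAs of the highest mean signal were all guide arms and held 71.3% of the miRNA signal of Ago2 and 73.5% of that of Sfpq. The let-7 family, which holds back growth and stem cell programmes, was foremost. let-7c-5p had signals of 1456010 with Ago2 and 1253670 with Sfpq (log2 ratio -0.07). let-7i-5p had 1036290 and 1334890 (0.51), and let-7f-5p 725512 and 725989 (0.15). Of the 9 guides of the let-7 family, 6 lay within 0.15 of 0, and the others were let-7i-5p, let-7g-5p (0.31) and miR-98-5p (0.31). miR-92a-3p of the oncogenic miR-17-92 cluster had 1134460 and 1244210 (0.28). miR-221-3p, a regulator of cell cycle inhibitors, had 775019 and 713449 (0.03), and its neighbour miR-222-3p 259432 and 362167 (0.63). The widest ratio among the 10 was that of miR-7a-5p, which lies in an intron of Hnrnpk, with 149962 and 257826 (0.93). let-7a-5p (512892 and 444524, -0.06), let-7b-5p (420541 and 377428, -0.01) and miR-21a-5p (373508 and 355121, 0.08) were close to 0.

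Over the 298 mature miRNAs at a mean of 20 or more, log2 levels in the RNA-IPs had a Pearson correlation of 0.98 and a Spearman correlation of 0.97, a description across miRNAs that are not independent of each other. The centred ratios had an SD of 0.80, and 248 of the 298 (83.2%) lay within 2-fold. Of the rest, 19 were 2-fold or more higher with Sfpq (6.38% of those measured) and 31 were 2-fold or more higher with Ago2 (10.4%). This split depends on the scale: it was 17 and 48 without centring and 7 and 72 on the all-RNA scale. For 15 of the 19 and 23 of the 31, the counting interval lay wholly beyond 2-fold. Of the 19, 6 were under 20 in the Ago2 RNA-IP and so reached the mean of 20 through the Sfpq value, and 7 of the 31 reached it through the Ago2 value.

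**Figure D1:**
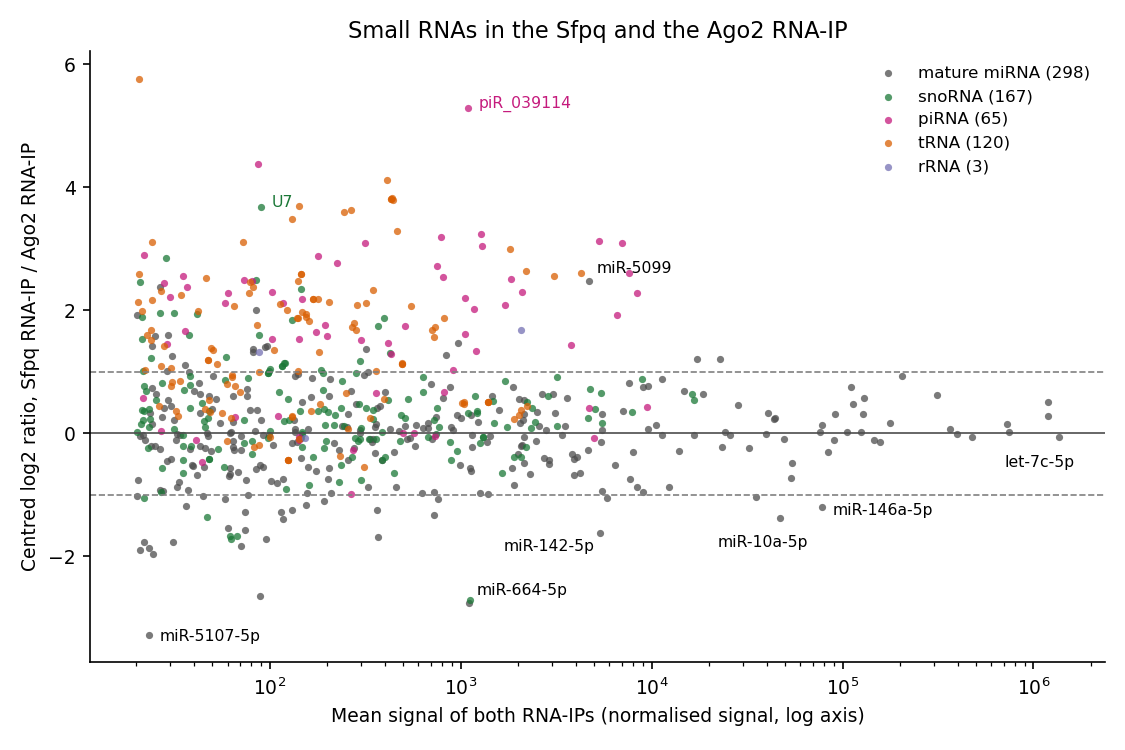
Centred log2 ratio of the Sfpq RNA-IP over the Ago2 RNA-IP (y) against the mean signal of both RNA-IPs on a log axis (x), 1 point for each of the 653 small RNAs at a mean of 20 or more, coloured by class, with dashed lines at 2-fold. The 19 miRNAs above a mean of 100000 stay within 2-fold, while tRNA and piRNA points lie mostly above 0 on this scale.

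The ratios narrowed with level. The SD was 1.01 for the 101 miRNAs at a mean of 20 to 100, where the median counting error was 0.18. It was 0.69 for the 84 at 100 to 1000 and 0.71 for the 64 at 1000 to 10000, with counting errors of 0.07 and 0.02. It was 0.63 for the 30 at 10000 to 100000 and 0.32 for the 19 at 100000 or more, and none of these 19 was past 2-fold. In every one of these ranges the spread between miRNAs was thus larger than the sampling of reads alone would give, and how much of it is spread between libraries is unknown. The miRNAs past 2-fold on the Sfpq side held 0.305% of the miRNA signal with Ago2 and 0.688% with Sfpq, and those on the Ago2 side 2.66% and 1.02%.

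Seen from Sfpq, the highest ratio belonged to miR-5099, with signals of 1549 with Ago2 and 7787 with Sfpq, a log2 ratio of 2.48 or 5.57-fold (2.43 to 2.52). It was also the most abundant of the 4 miRNAs without an arm name on this side. The others were miR-6243 (36.7 and 133, 2.01), miR-5115 (56.3 and 136, 1.42) and miR-5105 (190 and 446, 1.38), and none of the 4 was matched to a RefSeq sequence. miR-3089-3p, on chromosome 2, had 14.1 and 34.1 (1.42).

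The miR-212/132 locus, which the transcription factor CREB activates in neurons, was past 2-fold towards Sfpq in its abundant arms. miR-132-3p (chromosome 11: 75173723-75173744, plus strand) had 556 with Ago2 and 1388 with Sfpq, a ratio of 1.47 or 2.77-fold (1.39 to 1.55). miR-212-3p (75173443-75173464), with the same seed, had 55.9 and 133 (1.40). The miR-212-5p arm (75173403-75173425) had 9.06 and 31.0 (1.92, counting interval 1.31 to 2.53), but it reached the mean of 20 only through the Sfpq value, so its direction is not independent of the filter. All 3 lie in an intron of 1700016P03Rik in the annotation, and all stayed past 2-fold on every scale tried except miR-212-3p, at 0.95 on the all-RNA scale.

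Members of the miR-34 and miR-449 family, in which miR-34 is a target of p53, were not uniform. miR-34c-5p had 13.5 with Ago2 and 36.4 with Sfpq (1.58, counting interval 1.06 to 2.10). It reached the mean of 20 only through the Sfpq value, so its direction is not independent of the filter. miR-449a-5p had 226 and 393 (0.94), and miR-449c-5p 233 and 420 (0.997, just short of 2-fold). The most abundant member, miR-34a-5p, had 3585 and 3164 (-0.03), so the family's higher ratios were those of its scarcer members. At higher levels, miR-210-3p, the miRNA of the hypoxia response, had 14850 and 31014 (1.21), miR-148b-3p 11280 and 23416 (1.20) and miR-18a-5p of the miR-17-92 cluster 527 and 1155 (1.28). These 3 were past 2-fold on every scale but the all-RNA scale, where they were at 0.77, 0.76 and 0.84. The other miRNAs on this side were the 4 let-7 passengers with the seed UAUACAA, miR-215-5p (19.4 and 41.9), miR-22-5p (24.2 and 47.3) and miR-187-3p (20.4 and 37.2). Of these, let-7f-1-3p, let-7b-3p and miR-215-5p reached the mean of 20 only through their Sfpq values.

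The lowest ratio belonged to miR-5107-5p, with 42.8 with Ago2 and 3.99 with Sfpq, a log2 ratio of -3.27 or 9.68-fold higher with Ago2 (-4.14 to -2.41), a mean of 20 reached through the Ago2 value alone. miR-664-5p followed with 1939 and 258 (-2.76, 6.78-fold). Its mature sequence (chromosome 1: 185242975-185242995) lies inside the box H/ACA snoRNA SNORA36 (185242907-185243038), in an intron of Rab3gap2. SNORA36 itself was listed at 1974 and 272 (-2.71), the lowest snoRNA ratio, and the same reads may have been counted for both names. miR-1943-5p, in an intron of Tmem184b, had 156 and 22.6 (-2.64).

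Some abundant miRNAs were also on the side of Ago2, among them 2 of the 8 measured macrophage and myeloid markers, while miR-155-5p and miR-142-3p of that list were higher with Sfpq. miR-146a-5p, a brake on inflammatory signalling in macrophages, had 112469 with Ago2 and 44152 with Sfpq (-1.20). miR-10a-5p, encoded among the Hox genes, had 69729 and 24163 (-1.38), and miR-10b-5p 91.5 and 28.4 (-1.54). miR-142-5p, an arm of a hairpin specific to blood cells, had 8252 and 2433 (-1.61). These 4 stayed past 2-fold on every scale tried, but no scale moves ratios towards Sfpq by more than 0.04, so this was fixed in advance. miR-320-3p (49209 and 21541, -1.04) and miR-425-5p (8094 and 3537, -1.05) were close to the 2-fold limit.

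The 4 measured arms with a RefSeq position from hairpins of 1 cluster on the X chromosome had a median of -1.20. miR-500-3p came to it only through its Ago2 value, as it was under 20 with Sfpq. The far more abundant miR-532-5p, the opposite arm of miR-532-3p, was not matched to a position and is left out of this median, with 10020 and 5397 (-0.74). miR-500-3p had 33.4 and 8.13 (-1.89) and miR-501-3p 149 and 40.8 (-1.72), both from introns of Clcn5 and with the same seed. miR-362-3p had 52.8 and 29.8 (-0.68) and miR-532-3p 47.7 and 30.2 (-0.51). None of the 4 was higher with Sfpq on any scale tried, but no scale moves ratios towards Sfpq by more than 0.04. Further miRNAs among the lowest were miR-760-3p (39.8 and 9.24), miR-195a-3p (37.2 and 9.16), miR-1965 (112 and 28.4), miR-3103-3p (34.5 and 9.12), miR-338-3p in an intron of Aatk (49.2 and 13.0) and miR-92b-3p (572 and 161), with ratios between -1.96 and -1.68. Of these, miR-760-3p, miR-195a-3p, miR-3103-3p and miR-338-3p were under 20 with Sfpq and reached the mean of 20 only through their Ago2 values.

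Just inside and just outside the limits lay miR-212-5p, with a mean of 20.01, and miR-6537-3p, with 19.6 and a ratio of 0.01. At the 2-fold limit, miR-187-3p (1.02) was inside and miR-449c-5p (0.997) outside on the Sfpq side. On the Ago2 side miR-200a-3p (-1.02) was inside and miR-101c (-0.998) outside.

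In the 33 seed groups with at least 2 measured miRNAs, 90 miRNAs in all, the SD of the ratio was 0.77 over all members and 0.40 around each group's own mean. Since members of a group are alike in sequence and some share reads, this is a description, and single groups were wide, with a range of 1.28 for CAGUGCA and 1.05 for UAUACAA. The let-7 guides and let-7k, with the seed GAGGUAG, were the largest group, with 10 members between -0.11 and 0.51 and a median of 0.00. The seed group UAUACAA of 4 let-7 passengers was centred at 1.48 (1.32 to 2.37), and all 4 were past 2-fold, though only let-7f-1-3p and let-7b-3p remained so on the all-RNA scale. The miR-99/100 seed ACCCGUA had a median of -0.95, with miR-100-5p at 221 and 89.1 (-1.16), miR-99a-5p at 12263 and 5714 (-0.95) and miR-99b-5p at 16557 and 8132 (-0.88). These stayed below 0 on every scale tried, but no scale moves ratios towards Sfpq by more than 0.04. In the group AUUGCAC, miR-92b-3p at -1.68 stood apart from miR-92a-3p (0.28) and miR-25-3p (0.03), although the seeds are the same.

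**Figure D2:**
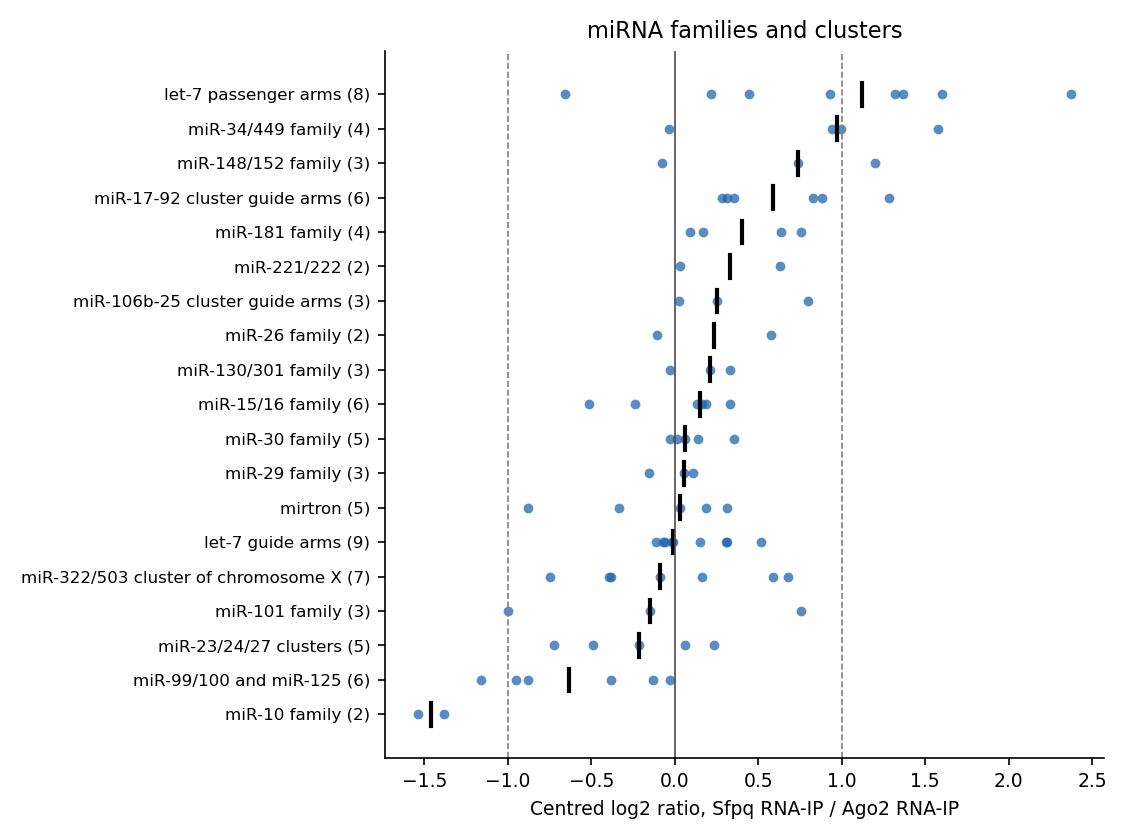
Centred log2 ratio of the Sfpq RNA-IP over the Ago2 RNA-IP (x) for the members of families and clusters (y, number of members at a mean of 20 or more in brackets), with the median as a black bar and dashed lines at 2-fold. Medians run from -1.46 for the miR-10 family to 1.12 for let-7 passengers, and those between 0 and 0.44 fall below 0 on the all-RNA scale, which sets the median of all small RNAs to 0.

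The lists of families gave the following beside a median of -0.03 over all 298 miRNAs. All 6 guides of the miR-17-92 cluster, which drives proliferation, were above 0, with a median of 0.59 here and 0.14 on the all-RNA scale, where miR-19a-3p, miR-19b-3p and miR-92a-3p fall below 0. In it miR-17-5p had 8528 with Ago2 and 14152 with Sfpq (0.88) and miR-20a-5p 5821 and 9307 (0.83). All 4 measured members of the miR-17 seed family were above 0, with a median of 0.81, though miR-93-5p (42493 and 45719, 0.25) falls below 0 on the all-RNA scale. All 4 members of the miR-181 family, known from lymphocyte development, were above 0 (median 0.40), among them miR-181b-5p with 87808 and 134002 (0.76), but miR-181c-5p (0.09) was below 0 without centring and the median was -0.04 on the all-RNA scale. The family of miR-148 and miR-152 had a median of 0.74 over 3 members. This median is the value of miR-148a-3p, with 19.2 with Ago2 and 28.9 with Sfpq. miR-148a-3p reached the mean level set for naming only through its Sfpq value, so its direction is not independent of the filter. The other members lay on both sides of 0, with miR-148b-3p at 1.20 and miR-152-3p at 583 and 499 (-0.08).

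Towards Ago2 stood the list of miR-99/100 and miR-125, with 6 of 6 members below 0 (median -0.63). Within it miR-125b-5p was at 1217 and 1076 (-0.03), and it was at 0.00875 on the scale of the common input. The miR-10 family had a median of -1.46. In the clusters of miR-23, miR-24 and miR-27 the median was -0.21, and miR-27b-3p was lowest with 69616 and 38098 (-0.72). The 8 measured macrophage and myeloid markers had a median of -0.46, with 3 above and 5 below 0 on the scale used here and 2 of them, miR-142-5p and miR-146a-5p, past 2-fold on the side of Ago2. miR-342-3p (288 and 132, -0.97), miR-223-3p (220 and 130, -0.61) and miR-146b-5p (97634 and 71047, -0.31) were lower with Sfpq, and miR-155-5p, which promotes macrophage activation, was higher with 12039 and 17451 (0.68).

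For the lists of let-7 guides, miR-15/16, miR-29, miR-30, miR-101, mirtrons and the cluster of miR-322 and miR-503, medians lay within 0.15 of 0, less than the shift between scales, so no direction is given. Of 7 miRNAs taken from the study's account of the RNA-IPs, 6 were listed, none past 2-fold: miR-106b-5p had 543 and 852 (0.80), miR-24-3p 42228 and 44917 (0.24) and miR-23b-3p 2621 and 1687 (-0.49), with let-7a-5p, miR-21a-5p and miR-125b-5p within 0.10 of 0.

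The arms of 1 hairpin were compared in 90 pairs, taking the arm with the higher deposited input as the guide, a choice that the ratio does not use. Some pairs share a guide, so the 90 pairs rest on 84 guides. The passenger arm had the higher ratio in 50 pairs and the guide in 40, and the median difference, passenger minus guide, was 0.12 on the log2 scale with quartiles of -0.59 and 0.57. Differences between arms do not depend on the scale. In 11 pairs the passenger was more than 2-fold ahead and in 10 the guide. Arms filed as passengers by the input thus had no common direction, and the median difference over the 82 pairs outside let-7 was 0.03. By this rule miR-106b-5p counts as a passenger, although the list of its cluster holds it as a guide. miR-125b-5p counts as the guide in 1 pair and as the passenger in another.

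The let-7 hairpins stood towards one end of this range. In 7 of 8 pairs the passenger had the higher ratio, with a median difference of 1.08. The 8 pairs are not independent. They rest on 6 guides, as let-7c-5p and let-7f-5p are shared by pairs, and let-7a-1-3p and let-7c-2-3p are 1 sequence. let-7f-1-3p and let-7b-3p were under 20 with Ago2 and reached the mean of 20 through their Sfpq values, which had to be the higher ones, and let-7i-3p, with a ratio of -0.14, was below that mean. let-7f-1-3p had 9.31 with Ago2 and 43.5 with Sfpq (2.37), against 0.15 for its guide. let-7b-3p had 15.7 and 43.1 (1.60), let-7a-1-3p 48.8 and 114 (1.37) and let-7c-2-3p 50.2 and 113 (1.32), and these 4 share the seed UAUACAA. The passengers with other seeds were lower, with let-7f-2-3p at 37.1 and 63.7 (0.93), let-7c-1-3p at 27.1 and 33.2 (0.44) and let-7e-3p at 30.6 and 32.1 (0.22). let-7d-3p, the most abundant of them, went the other way with 2919 and 1666 (-0.66). For this reason the summed signal of the let-7 passengers was lower with Sfpq (2145 against 3168) while their median ratio was 1.12, and the direction of the list is that of its scarce members.

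**Figure D3:**
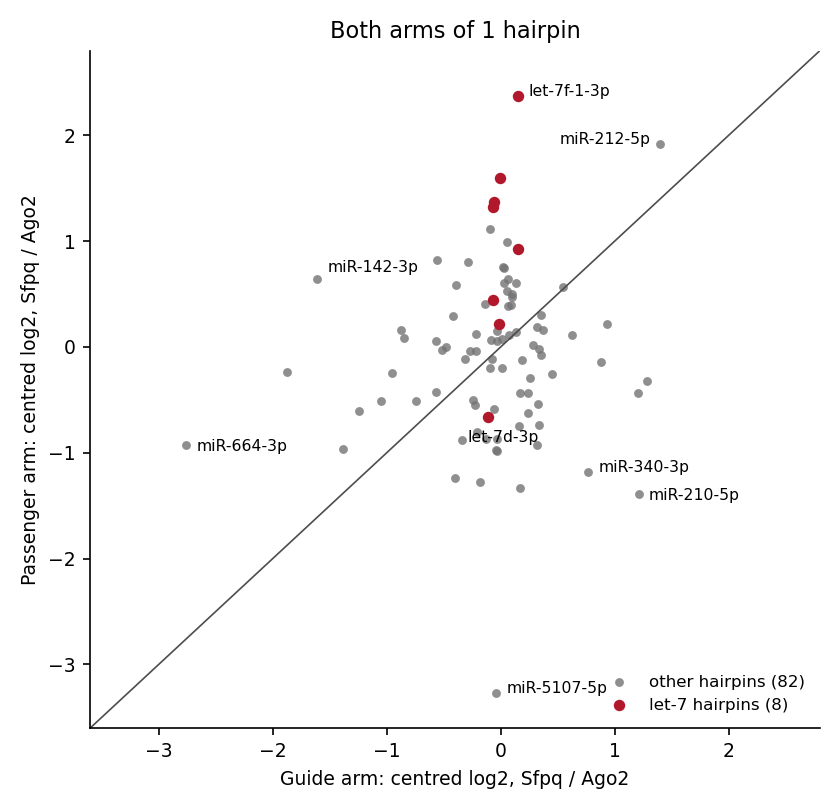
Centred log2 ratio of the passenger arm (y) against that of the guide arm (x), 1 point per hairpin pair with both arms at a mean of 20 or more, with the line of equal ratios. Of 8 let-7 pairs (red), which rest on 6 guides, 7 lie above the line, while the 82 other pairs (grey) lie on both sides, 43 above and 39 below.

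Outside let-7 some hairpins split widely. miR-142-3p had 2208 with Ago2 and 3116 with Sfpq (0.65), while miR-142-5p was at -1.61, a difference of 2.26. The miR-210 hairpin split in the other direction, with the guide miR-210-3p at 1.21 and miR-210-5p, with 173 and 59.7, at -1.39. miR-340-5p had 7589 and 11639 (0.77) and miR-340-3p 52.1 and 20.7 (-1.18). The remaining hairpins with the largest differences were miR-664 (1.84), miR-195a (1.63), miR-5107 (-3.24), miR-148b (-1.64) and miR-18a (-1.60), and in these 5 the arms differed by more than 3-fold. Among their arms, miR-664-3p, miR-195a-3p and each arm of miR-5107 were under 20 with Sfpq and reached the mean of 20 through their Ago2 values.

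The base composition of the mature sequence went weakly with the ratio. Over the 255 miRNAs with a sequence, the percent GC had a Pearson correlation of -0.30 with the ratio and a Spearman correlation of -0.31, as a description over miRNAs from the same libraries. The 91 miRNAs with the lowest GC, 22.7% to 43.5%, had a median ratio of 0.16. The 84 with the highest, 52.6% to 73.9%, had -0.22. Past 2-fold on the side of Ago2 were 13 of these 84 and 8 of the 91 with the lowest GC, beside 10.4% of all measured miRNAs. The order of these groups does not depend on the scale. The length of the sequence, with a Pearson correlation of 0.05, and the mean level, with 0.11, went less with the ratio, and the median ratios by first base lay between -0.20 (G) and 0.01 (C).

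Over all 653 small RNAs at a mean of 20 or more, 170 were 2-fold or more higher with Sfpq (26%) and 37 with Ago2 (5.67%). tRNA, rRNA and piRNA entries had no member past 2-fold on the side of Ago2, snoRNA entries had 6, and miRNAs made up the other 31. The signals were also set beside the deposited input, which the ratio does not use. In the input column of the Ago2 table, tRNA entries took 6.11% of the signal and piRNA entries 7.37%. Of the 120 tRNA entries at a mean of 20 or more, 109 were below the input in both RNA-IPs, as were 50 of 65 piRNA, 69 of 167 snoRNA and 46 of 298 miRNA entries. The part of lysate RNA left on the beads in these ratios was not tested.

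**Figure D4:**
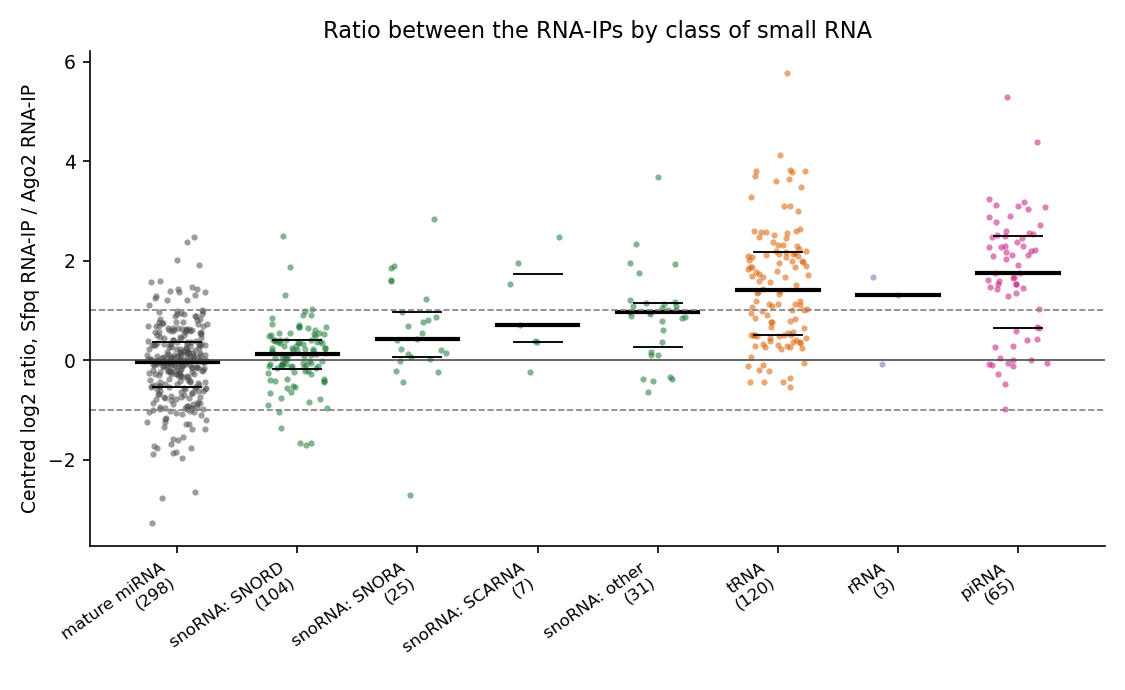
Centred log2 ratio of the Sfpq RNA-IP over the Ago2 RNA-IP (y) by class of small RNA (x, number at a mean of 20 or more in brackets), with the median as a thick bar, the quartiles as thin bars and dashed lines at 2-fold. Medians were -0.03 for miRNAs, 1.41 for tRNA and 1.76 for piRNA entries. SNORD and SNORA medians (0.12 and 0.42) turn to -0.33 and -0.03 on the all-RNA scale.

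Small nucleolar RNAs guide chemical changes of rRNA and small nuclear RNAs, box C/D members (SNORD) methylation and box H/ACA members (SNORA) pseudouridine. Their 167 entries had a median ratio of 0.25, which becomes -0.20 on the all-RNA scale. Past 2-fold were 27 towards Sfpq (16.2%) and 6 towards Ago2 (3.59%), in each case a smaller share than over all 653 small RNAs (26% and 5.67%). The 104 SNORD entries were centred near 0, with 4 and 5 past 2-fold. Of 25 SNORA entries 20 were above 0, a count that falls on the all-RNA scale, where their median is -0.03, and 7 guides of Cajal bodies (SCARNA) had a median of 0.71. The 31 entries with other names, many of them spliceosomal or processing RNAs, had a median of 0.98, and 14 were past 2-fold towards Sfpq (45.2%) and none towards Ago2. The 14 include entries, such as U7 and U12, that reached the mean of 20 only through their Sfpq values.

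Small nuclear RNAs filed in this class were among the highest. U7, which guides the end processing of histone mRNAs, had 14.3 with Ago2 and 165 with Sfpq, a ratio of 3.67 or 12.8-fold (chromosome 6: 124741225-124741286, counting interval 3.23 to 4.12). U11 (52.0 and 238, 2.35) and U12 (18.6 and 64.6, 1.94), both of the minor spliceosome, were also past 2-fold. U1 of the major spliceosome had 4 entries with a median of 1.05, and U3, which acts in rRNA processing, 8 entries between 0.37 and 1.05, of which the lowest falls below 0 on the all-RNA scale. U8, another processing RNA, went the other way with 462 and 310 (-0.43). U7 and U12 were under 20 with Ago2, and so were SNORA57 (7.67 and 49.7, 2.85) and SCARNA4 (6.95 and 34.7, 2.47). The U1 entry lowest with Ago2, at 15.3, was too. All of these reached the mean of 20 through their Sfpq values, so the filter fixed their direction. SNORD89 had 27.9 and 142 (2.50).

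The snoRNAs encoded in Gas5 had 7 entries with a median of 0.61, of which 6 were above 0 on the scale used here and 1 was past 2-fold. They summed to 26076 with Ago2 and 34760 with Sfpq. At the other end, besides SNORA36, 3 entries of SNORD62 in introns of Prrc2b and Pip5k1a had 95.8 to 104 with Ago2 and 27.1 to 29.6 with Sfpq, with ratios of -1.71 to -1.67. These near-equal values may be the same reads counted at copies of 1 sequence. SNORD88 had 69.0 and 24.3 (-1.36).

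The tRNA entries were higher with Sfpq nearly throughout. Of 120 entries at a mean of 20 or more, 110 were above 0 on the scale used here and 75 were past 2-fold (62.5%), with a median of 1.41 and quartiles of 0.51 and 2.18. The median was 0.96 on the all-RNA scale and 1.14 among entries with 20 or more in each RNA-IP. tRNAs carry amino acids to the ribosome, and small RNA libraries hold mainly their fragments. An anticodon was known for 110 entries of 35 kinds, and 34 of the 35 anticodons had a median above 0 on the same scale, among them Cys-GCA (0.36), which falls below 0 on the all-RNA scale. In Ala-AGC, Asn-GTT, Thr-TGT, Ala-TGC and Arg-TCG every entry was under 20 with Ago2, at most 18.3. Such entries reached the mean of 20 through their Sfpq values, so the filter fixed their direction. The counts above 0 and past 2-fold include them. Copies of a tRNA gene share reads, as the 115 distinct pairs of values among the 120 entries show in part.

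The anticodons differed widely. The 5 Met-CAT genes on chromosome 13 had 49.0 to 65.0 with Ago2 and 772 to 813 with Sfpq, with a median ratio of 3.81 or 14.0-fold. The Gln-TTG gene had 23.7 and 238 (3.48), and the 4 Gln-CTG genes a median of 2.58, with up to 1322 and 7244. Val-TAC, with 3 genes, was at 2.58, and the 9 Pro entries were between 1.87 and 2.32. At the low end, the 7 Gly-GCC genes, the most abundant with Ago2 at 1221 to 1984, had 1571 to 2446 with Sfpq and a median of only 0.45. Glu-CTC was at 0.50, and Leu-CAG (148 and 99.2, -0.43 in 3 entries that share their values) and the Glu-TTC gene n-TEttc5 (383 and 237, -0.54) were below 0. Genes of 1 anticodon could also differ: Lys-CTT ran from -0.23 to 5.77, the latter in n-TKctt21 (chromosome 10: 87829886-87829958), with 0.821 and 40.4. That entry passed the mean of 20 through its Sfpq value alone.

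**Figure D5:**
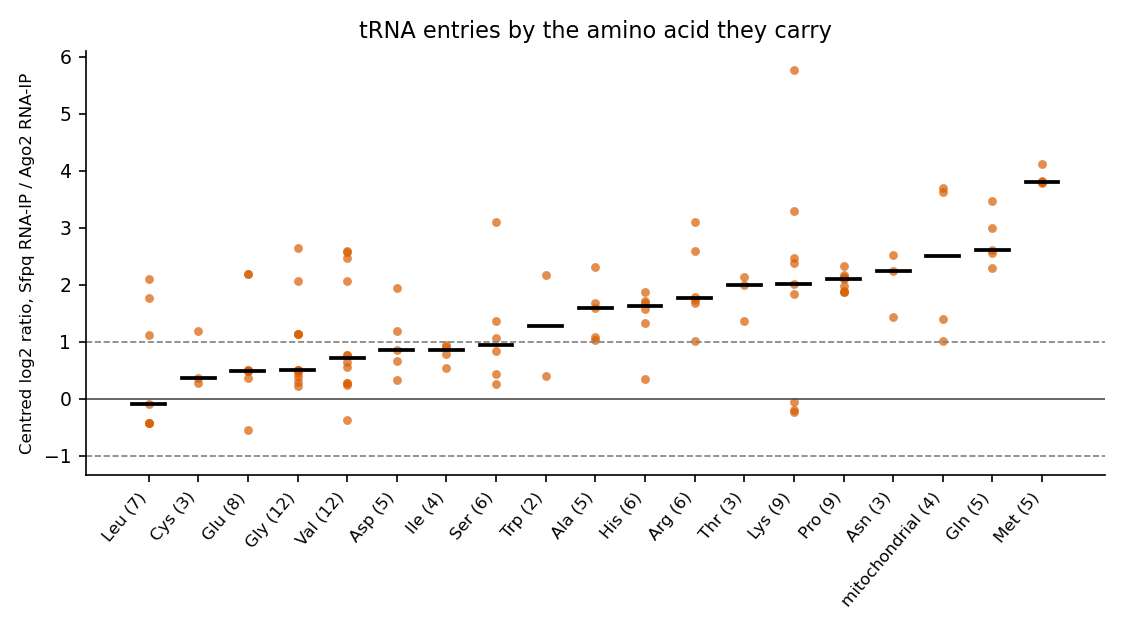
Centred log2 ratio of the Sfpq RNA-IP over the Ago2 RNA-IP (y) for tRNA entries at a mean of 20 or more, grouped by amino acid (x, number of entries in brackets), with the median as a black bar and dashed lines at 2-fold. Medians run from -0.09 for Leu to 3.81 for Met, and those of up to 0.44 fall below 0 on the all-RNA scale, which sets the median of all small RNAs to 0.

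Mitochondrial tRNAs followed the same side. Of the 4 mitochondrial entries at a mean of 20 or more, mt-Ta had 22.3 with Ago2 and 261 with Sfpq (3.70), mt-Ty 43.7 and 489 (3.63) and mt-Tl1 99.9 and 182 (1.01). The mitochondrial rRNA entry, in contrast, was at 165 and 141 (-0.07). Of the other rRNA entries, that of 5.8S had 1066 and 3075 (1.68) and the 5S copy with the highest level 54.3 and 122 (1.31). Over 22 5S entries listed above 0 in both RNA-IPs, at any level, 18 were above 0 and the median was 1.17.

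The entries filed as piRNA, small RNAs that silence transposons in the germ line, had the highest class median, 1.76 with quartiles of 0.65 and 2.50. Of 65 entries, 56 were above 0 on the scale used here and 47 past 2-fold towards Sfpq (72.3%, beside 26% over all 653 small RNAs). These counts include entries under 20 with Ago2, down to 5.65. Such entries reached the mean of 20 through their Sfpq values and had to be above 0. piR_039114 had 60.0 with Ago2 and 2116 with Sfpq, a ratio of 5.29 or 39.1-fold, piR_012087 8.70 and 163 (4.38, above the mean of 20 through Sfpq alone) and piR_038328 267 and 2280 (3.24). The lowest were piR_020692 with 366 and 167 (-0.98), piR_000705 with 53.2 and 34.6 (-0.47) and piR_025007 with 313 and 234 (-0.27). The 20 entries with several piRNA names had a median of 2.30 and 19 of them were past 2-fold, while the 45 with 1 name had 1.52. The tables give no position for these entries, so whether they overlap tRNA or rRNA entries was not tested.

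RNAs listed in 1 RNA-IP alone were scarce ones. Of the 1715 small RNAs in both tables, 1126 were above 0 in both RNA-IPs, 123 were at 0 only with Ago2, 69 at 0 only with Sfpq and 397 at 0 in both. With a floor of 3 reads, a signal of 0.980 with Ago2 and 1.02 with Sfpq, miR-92b-5p (11.7 with Ago2, 0 with Sfpq) was at least 10.4-fold higher with Ago2 and miR-1943-3p (8.28 and 0) at least 7.33-fold. These are the opposite arms of miR-92b-3p and miR-1943-5p, which were also higher with Ago2. In the other direction a tRNA entry on the X chromosome (161135134-161135216, 0 and 5.57) was at least 6.30-fold higher with Sfpq. SNORA26 (0 and 4.66) was at least 5.27-fold and miR-3095-5p (0 and 4.31) at least 4.87-fold higher with Sfpq. A further 110 small RNAs were listed only in the Ago2 table and 224 only in the Sfpq table, at signals of at most 4.84 and 3.83.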

How the data were processed

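Small RNA libraries of 3 Ago2 RNA-IPs, 3 Sfpq RNA-IPs and 3 inputs were read on a SOLiD sequencer. According to the study's methods, omiRas mapped and normalised the reads, with LifeScope named for mapping as well. The submitters' processing notes list cutadapt and mm10. Which of these steps made the values is unclear. The authors deposited a normalised signal per small RNA, averaged over the libraries of a group, in 1 table per RNA-IP, each normalised separately with the input. Their log2 ratios to input, p-values, false discovery rates and lists of enriched RNAs were not used. The lowest values, 364 of 364 (Ago2) and 445 of 445 (Sfpq) under 2, are sums of whole steps within 2e-05, which gave the weight of 1 read. The depth of single libraries is unknown.

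The tables were joined by name. The log2 ratio was centred on the median of miRNAs above 0 in both RNA-IPs, with no pseudocount. Named at a mean of 20 or more were the 12 highest and 12 lowest miRNAs, the 10 most abundant, the 5 highest and lowest snoRNAs, the 3 highest and lowest of other classes, the 5 widest hairpins each way, miRNAs named by the study and members of 28 lists. Members and lists were chosen with earlier results of these data known, and other names in the text were chosen after their values were seen. Alternatives were other scales, levels, folds and pseudocounts. Host genes came from GENCODE, sequences and tRNA genes from RefSeq, and Python 3.11.15, pandas 2.3.3, NumPy 2.4.6 and matplotlib 3.10.9 were used. The scripts were tested on simulated data.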

Additional observations from a re-analysis of the deposited data

How the results depend on the processing

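No paired analysis was possible because the tables hold 1 pooled value per group, and leaving out a replicate was not run for the same reason. Some medians changed sign between settings, in 8 values for classes and 54 for lists and seeds. The 58 named RNAs past 2-fold kept their sign in all 464 recomputed values, and 441 of these stayed past 2-fold. For the scales the kept sign was fixed in advance. These RNAs were selected for being past 2-fold, and the largest shift of a scale was -0.44. A pseudocount mostly draws ratios towards 0, so it tested the sign only weakly. The 58 included scarce RNAs below the level set for naming, such as miR-302d-3p. The miRNAs 2-fold or more higher with Ago2, 31, became 48 uncentred, 48 by the summed miRNA signal, 49 by the summed signal, 72 on the all-RNA scale (the median of all small RNAs set to 0), 15 at a mean of 100 or more, 68 at a fold of 1.5 and 12 at a fold of 3. Those higher with Sfpq, 19, became 7 on the all-RNA scale, 35 at a mean of 5 or more, 6 at a mean of 100 or more, 55 at a fold of 1.5 and 5 at a fold of 3. The other values moved by the shift of the scale.

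Uncentred, medians were -0.18 for miRNAs, 0.10 for snoRNAs, -0.16 for let-7 guides, -1.61 for miR-10, -0.087 for miR-30 and -0.15 for seed GAGGUAG. By the summed miRNA signal the same were -0.18, 0.10, -0.16, -1.61, -0.088 and -0.15, and by the summed signal -0.20, 0.077, -0.18, -1.63, -0.11 and -0.17, with GUAAACA at -0.031 and UAUACAA at 1.31. A pseudocount of 10 gave -0.11 for miRNAs, -0.094 for let-7 guides, -0.080 for GAGGUAG and 1.12 for UAUACAA.

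On the all-RNA scale, medians were -0.48 for miRNAs, -0.20 for snoRNAs (SNORD -0.33, SNORA -0.027, other 0.53), 0.96 for tRNA and 1.31 for piRNA. For lists they were -0.45 for let-7 guides, -1.91 for miR-10, -0.19 for miR-106b-25, -0.23 for miR-130 with miR-301, 0.14 for miR-17-92, -0.042 for miR-181, -0.12 for miR-221 with miR-222, -0.21 for miR-26, -0.39 for miR-29, -0.38 for miR-30 and 0.058 for neuronal markers. For seeds they were -0.042 for ACAUUCA, -1.40 for ACCCGUA, -0.39 for AGCACCA, -0.28 for AGCAGCA, -0.58 for CCCUGAG, -0.45 for GAGGUAG, -0.31 for GUAAACA and 1.04 for UAUACAA.

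The median difference between arms lay between -0.03 and 0.12 under its 6 alternatives. With 1 value per group, depth limits single ratios of scarce RNAs, and the spread between libraries is unknown for all.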
